A study of Mus musculus with 6 samples.

Results

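NF-κB is a family of dimeric transcription factors that switch on inflammatory genes in microglia, the resident macrophages of the brain, after stroke. The 10 genes described here, out of 18222 genes tested, include 5 subunits (Nfkb1, Nfkb2, Rela, Relb and Rel) and the kinase Ikbkb. The other 4 (Nfkbia, Nfkbiz, Nfkbie and Tnfaip3) are grouped here as inhibitors, though Nfkbiz gives a nuclear IκB that also helps switch on some genes. The 10 genes were taken by symbol, with every probe whose RefSeq accession maps to one of the 10 symbols, and all 10 were found, on 15 probes. Their transcripts were compared between 3 control and 3 mPGC-1α samples of microglia taken after acute ischemic stroke (AIS) from mice labelled as male and 10 weeks old. Control mice were PGC-1α f/f littermates, whose f/f allele holds a Pgc-1α transgene tagged with IRES-eGFP. The mPGC-1α mice carried the same allele and, in addition, a tamoxifen-inducible Cx3cr1-Cre/ER driver, meant to overexpress the coactivator PGC-1α. By the study's methods, both groups had received tamoxifen, AIS was produced by transient middle cerebral artery occlusion (tMCAO), and the cells were purified with magnetic beads against P2RY12, a microglial receptor. Cx3cr1 is also active in some other macrophages and in monocytes, and by the methods an interval was left between tamoxifen and tMCAO so that expression would be kept to microglia. The sources used here do not say whether 1 mouse or a pool stood behind a sample, so p-values measure only the spread between these samples, which may be technical.

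In resting cells, NF-κB dimers are held in the cytoplasm by IκB proteins. The kinase complex that contains IKKβ, the product of Ikbkb, marks IκB for destruction, and the freed dimers enter the nucleus. Among the first genes they switch on are those of their own inhibitors, such as IκBα (Nfkbia) and the ubiquitin-editing enzyme A20 (Tnfaip3), and of several subunits, so the pathway feeds back on itself. A second, noncanonical arm matures the Nfkb2 product to p52, which pairs with RelB.

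This feedback acts through κB sites. The κB consensus, a 10-base motif searched on both strands, was looked for in RefSeq promoter windows from 250 bases before to 50 after each start (GRCm38.p6). It was present in 8.46% of 32851 windows and for 9.55% of 27025 genes. Of the 6 members with a window, 5 held it, and Rela did not. For Nfkb1, Relb, Nfkbiz and Ikbkb there was no entry. A stretch of 34 bases is shown for each of these 5 members, because they hold the letters that NF-κB dimers are known to bind. Capitals mark the match, and each stretch is read 5′ to 3′ on the strand of the gene.
Nfkb2, chr19:46305693-46305726, + strand: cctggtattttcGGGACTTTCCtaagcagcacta
Rel, chr11:23771040-23771073, - strand: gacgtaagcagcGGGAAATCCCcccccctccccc
Nfkbia, chr12:55492655-55492688, - strand: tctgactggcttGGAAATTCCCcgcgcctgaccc
Nfkbie, chr17:45555582-45555615, + strand: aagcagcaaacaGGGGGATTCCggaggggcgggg
Tnfaip3, chr10:19015401-19015434, - strand: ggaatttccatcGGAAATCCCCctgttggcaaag

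Counted from the start of the transcript, the Nfkb2 match begins at position 11 of 1 annotated start and at -225 of another. The matches in Nfkbia and Tnfaip3 are on the opposite strand of the gene, and that in Rel reads on both strands and overlaps a second match shifted by 1 base. A match describes letters, not a bound site. In the other gene lists of the pathway, the consensus was found for 6 of 12 other inhibitors, 9 of 24 target genes, 4 of 22 receptors and adaptors, 1 of 7 noncanonical genes and 0 of 5 kinases with a window.

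Levels below are log2 of the processed green signal minus the 75th percentile of the array, so a value of 0 is the level that 75% of probes do not exceed. Levels of different probes cannot be set against each other. A call means an adjusted p below 0.05 in limma, over all 40745 tested probes. Here 0 of 40745 probes were called (0%), the smallest adjusted p being 0.6385, while 2921 had an unadjusted p below 0.05. The median difference, mPGC-1α minus control, was 0.083 over all probes and 0.11 over all genes by their brightest probe. All differences below are in that direction and on the log2 scale.

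Some facts on the 6 arrays bear on every value. Ppargc1a, the gene meant to be overexpressed, was not higher on the arrays labelled mPGC-1α: its brighter probe differed by -0.31 (limma SE 0.24, adjusted p = 0.798) and its other probe by -0.41 (adjusted p = 0.769). Where these probes lie relative to the transgene is not given in the sources used here, so they may not read it. Control array 2 stood apart, with Xist at -4.83 against -0.57 to -0.11 elsewhere and the Y-linked genes Ddx3y and Uty well above background there alone. So were single probes of the Y-linked genes Kdm5d and Eif2s3y. Another Kdm5d probe was well above background on all 6 arrays (-3.09 on control array 2, -5.01 to -4.00 elsewhere), another Eif2s3y probe on 2, and a further Kdm5d probe on none. By Xist, Ddx3y and Uty, the other 5 arrays go against their male label. Among microglial markers, P2ry12 read between 3.943 and 4.396 and Tmem119 between 5.15 and 5.52 over the 6 arrays, marked spots kept. Cx3cr1, the locus that drives the Cre and a gene named after its values were seen, read 4.19, 3.66 and 4.11 in the controls and 2.79, 2.36 and 3.13 in mPGC-1α (difference -1.23, limma adjusted p = 0.684), without overlap. Markers of other brain cells were also measured, and none was called (adjusted p at least 0.684). The summed linear level of the neuronal list was 41.9 to 68.3 on control arrays and 67.4 to 78.5 on mPGC-1α arrays (14 of 15 genes above 0), that of the oligodendrocyte list 16.9 to 24.6 and 29.1 to 41.6 (12 of 13), and that of the astrocyte list 11.9 to 18.5 and 19.9 to 64.1 (10 of 10 tested). Snap25 made up 80.0% to 92.7% of the neuronal sum, and the other neuronal genes summed to 4.53 to 6.88 and 6.49 to 14.8. Their part in the results was not tested, and fewer cells of a type cannot be told apart from less RNA per cell. The microglial list summed to 356 to 425 and 411 to 452, with 8 of 15 tested genes above 0. In the monocyte and border macrophage list 2 of 14 genes were above 0, and in the choroid plexus list 0 of 7 tested. The neutrophil list summed to 95.7 to 143 on control arrays and 90.5 to 160 on mPGC-1α arrays, with 4 of 7 tested genes above 0. Marked spots kept some bright genes from being tested, so these sums and counts leave them out. They are P2ry12, Tmem119 and C1qa (microglia), Ttr and Clic6 (choroid plexus), and S100a8, S100a9, Ngp and Ltf (neutrophils). The 4 neutrophil genes read 3.40 to 5.85 with marked spots kept. In the lymphocyte list 6 of 12 genes were above 0, and in the endothelial and mural list 7 of 9 tested. The part of these lists in the results was not tested either.

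By brightest probe, most of the 10 genes had a higher mean on the arrays labelled mPGC-1α, by small amounts. Nfkb1, the gene of the p50 subunit, had a lower mean by 2.00-fold. On these probes 9 of 10 genes were above 0, where 64% of all genes were, and the median member difference was 0.37. This depends on the probe rule. The second probes of Rela, Nfkbiz and Ikbkb were below 0, and with the probes of a gene averaged the median was 0.24. Over the 6367 genes with at least 2 tested probes, the median was 0.125 for the brightest and -0.074 for the second. No member probe was called: 0 of 15 had an adjusted p below 0.05, with adjusted p between 0.684 and 0.919. At an unadjusted limma p below 0.05 there were 2 member probes lower, in Nfkb1 and Ikbkb, and 1 higher, in Ikbkb, beside 4.52% of all probes lower and 2.65% higher. Of the 13 member probes with a value on all 6 arrays, 2 had groups that did not overlap with mPGC-1α higher (Relb and Ikbkb) and 0 with mPGC-1α lower, against 6.8% and 4.66% of 36995 probes. Under quantile normalization, with or without another background correction, and in the authors' own log2 values, 8 of 10 genes were above 0, since Nfkbia turned to below 0. Without mPGC-1α array 1, 6 of 10 were above 0 and the median was 0.19.

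**Figure D1:**
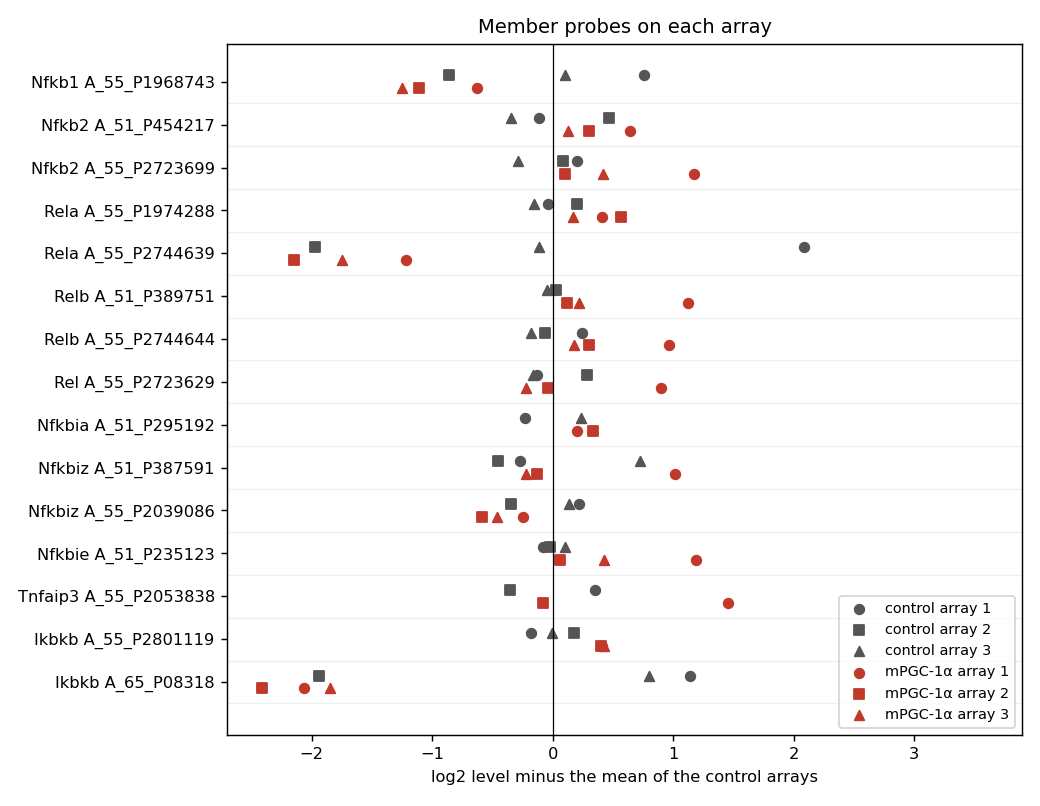
Log2 level of each member probe on each array minus the mean of the control arrays of that probe; grey points are the 3 control arrays, red points the 3 mPGC-1α arrays, and the shape gives the array number. mPGC-1α array 1 lies farthest to the right in most rows, and the 3 probes with the widest spread (Nfkb1, the second of Rela and the second of Ikbkb) have control arrays 1 and 3 to the right of control array 2.

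Among the subunits, Nfkb1 gives p105 and p50, the partner of p65 in the classical dimer. Its single probe read 1.59, -0.029 and 0.94 on control arrays 1 to 3 and 0.21, -0.28 and -0.42 on mPGC-1α arrays 1 to 3. Control arrays 1 and 3 were high, and control array 2 lay within the range of the mPGC-1α arrays. The difference was -0.997 (95% interval -1.86 to -0.13, limma adjusted p = 0.685). It was -0.82 among the arrays on slide 1 and -1.36 on slide 2.

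Rela gives p65, the subunit that carries the main activation domain. Its brighter probe read 3.39, 3.63 and 3.28 in the controls and 3.841, 4.001 and 3.604 in mPGC-1α, a difference of 0.38 (SE 0.19, limma adjusted p = 0.715). These groups overlapped only where control array 2 exceeded mPGC-1α array 3. The second Rela probe, which carries the same accession, read 1.71, -2.35 and -0.49 in the controls and -1.59, -2.52 and -2.13 in mPGC-1α. Control array 1 stood far above the rest, and control array 2 was among the mPGC-1α values. This probe differed by -1.71 with an SE of 0.82, the widest of the members (limma adjusted p = 0.711).

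Nfkb2, the gene of p100 and p52, had a brighter probe at 2.56, 3.14 and 2.33 in the controls and 3.32, 2.98 and 2.81 in mPGC-1α (difference 0.35, limma adjusted p = 0.778). Its other probe read 0.72, 0.60 and 0.23, and then 1.69, 0.62 and 0.93 (difference 0.56, limma adjusted p = 0.722). The groups overlapped on both probes, and mPGC-1α array 1 was the highest of the 6 on each.

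Relb, whose product pairs with p52, read 1.36, 1.37 and 1.29 in the controls and 2.46, 1.46 and 1.56 in mPGC-1α on its brighter probe. The groups did not overlap there, but mPGC-1α array 2 exceeded control array 2 by a narrow margin. The difference was 0.49 (SE 0.27, limma adjusted p = 0.741; exact permutation p = 0.1, the smallest that 3 against 3 can give). The other Relb probe read 0.94, 0.64 and 0.53, and then 1.67, 1.00 and 0.88, a difference of 0.48 with overlapping groups. Without mPGC-1α array 1 both differences shrank, to 0.17 and 0.24.

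Rel, the gene of c-Rel, gave a weak signal of 46.6 to 97.1 units per array, though well above background on all 6. It read -4.00, -3.58 and -4.03 in the controls and -2.97, -3.91 and -4.09 in mPGC-1α. Only mPGC-1α array 1 was high, and the difference of 0.21 (SE 0.37, limma adjusted p = 0.915) became -0.13 without it.

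Among the inhibitors, Nfkbia gives IκBα, the inhibitor that is rebuilt first after a pulse of NF-κB activity, and gave 41992 to 57047 signal units per array, with no saturated spot. The scanner software had marked its spot as an outlier on control array 2 and mPGC-1α array 3, so the fit left these out. The remaining values were 5.41 and 5.87 in the controls and 5.84 and 5.98 in mPGC-1α (difference 0.27, n = 2 against 2, limma adjusted p = 0.821). With the marked spots kept, control array 2 read 5.89 and mPGC-1α array 3 read 5.81. The groups overlapped either way, and the sign of the difference turned under quantile normalization (-0.098).

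Tnfaip3, the gene of A20, had marked spots on both arrays numbered 3. On the others it read 0.97 and 0.26 in the controls and 2.07 and 0.53 in mPGC-1α. The difference of 0.68 was the highest among the members by brightest probe, with an interval from -0.51 to 1.88 and n = 2 against 2 (limma adjusted p = 0.792). This difference became -0.084 without mPGC-1α array 1. With the marked spots kept, control array 3 read 1.26 and mPGC-1α array 3 read 1.39. The difference was then 0.50, below that of Nfkbie at 0.56.

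Nfkbie gives IκBε, another cytoplasmic inhibitor. Its probe read 1.31, 1.367 and 1.496 in the controls and 2.58, 1.45 and 1.82 in mPGC-1α, a difference of 0.56 (SE 0.28, limma adjusted p = 0.715). The groups overlapped by control array 3 alone, and without mPGC-1α array 1 the difference was 0.24.

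Nfkbiz gives IκBζ, a nuclear IκB that helps switch on secondary response genes such as Il6. Its brighter probe read -0.11, -0.29 and 0.89 in the controls and 1.18, 0.029 and -0.057 in mPGC-1α, a difference of 0.22 (SE 0.40). The other probe read 0.53, -0.037 and 0.45, and then 0.067, -0.28 and -0.15, a difference of -0.43 (SE 0.24). The probes thus differed in sign, with overlapping groups on each (limma adjusted p = 0.919 and 0.735).

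Ikbkb, the kinase gene, had probes that differed in opposite directions. The brighter one read 2.42, 2.78 and 2.60 in the controls and 3.01, 3.00 and 3.02 in mPGC-1α. All 3 mPGC-1α arrays lay above all controls and within a narrow range, and the difference was 0.41 (SE 0.18, limma adjusted p = 0.690; exact permutation p = 0.1). The second probe, assigned to another RefSeq transcript of Ikbkb, read -0.27, -3.35 and -0.60 in the controls and -3.48, -3.82 and -3.26 in mPGC-1α. Control arrays 1 and 3 stood above the other 4 arrays by 2.65 or more, and control array 2 lay inside the mPGC-1α range. Its difference was -2.11 (95% interval -3.67 to -0.55, limma adjusted p = 0.684). The signal was weak on control array 2 and the mPGC-1α arrays, at 49.7 to 93.3 units, against 978.4 and 641.5 on control arrays 1 and 3. It was still well above background on all 6. Under quantile normalization with another background correction the difference was -1.40.

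**Figure D2:**
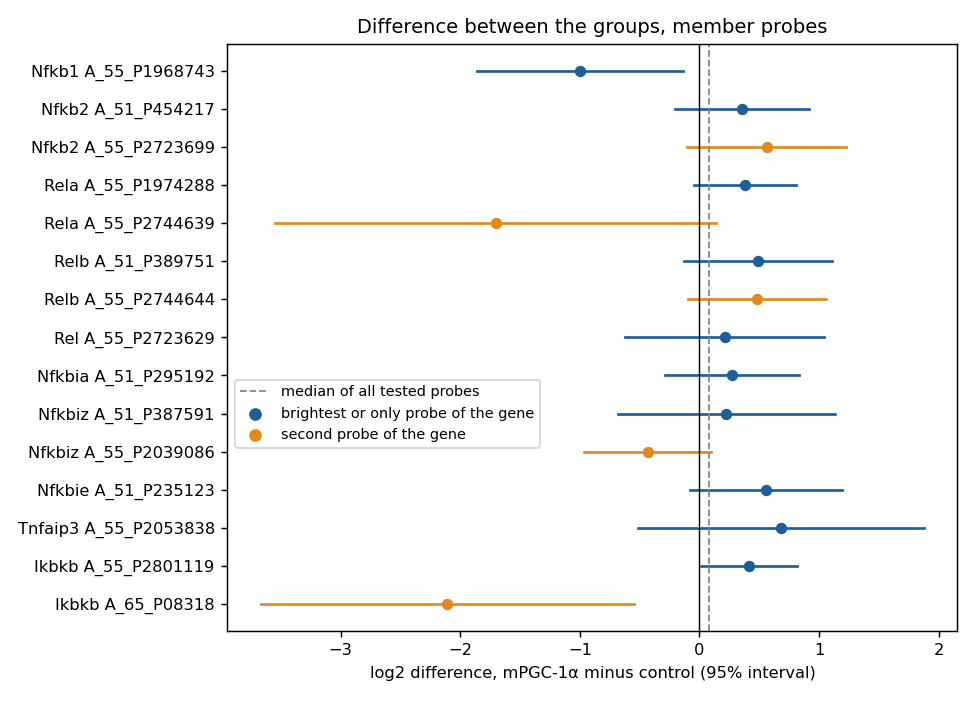
Log2 difference between the groups (mPGC-1α minus control) of each member probe with its 95% limma interval; blue marks the brightest or only probe of a gene and orange the second, and the dashed line is the median of all tested probes, 0.083. The brightest probes lie to the right of 0 except that of Nfkb1, and the second probes of Rela, Nfkbiz and Ikbkb lie to the left.

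The 5 genes with 2 probes allow a comparison within each array, free of the scaling between arrays. The dimmer Ikbkb probe gave only 49.7 to 93.3 units on control array 2 and the mPGC-1α arrays. For Ikbkb, the dimmer minus the brighter probe was -2.69, -6.13 and -3.20 in the controls and -6.49, -6.82 and -6.28 in mPGC-1α. These values did not overlap, and their group means differed by -2.52 (exact permutation p = 0.1, and 0.5 after Benjamini-Hochberg adjustment over the 5 genes). For Rela the same quantity was -1.68, -5.98 and -3.76, and then -5.44, -6.52 and -5.73, so that control array 2 again lay with the mPGC-1α arrays (difference -2.09, exact permutation p = 0.3, adjusted 0.5). Between arrays of the same number it differed by -3.75, -0.54 and -1.97 for Rela and by -3.79, -0.69 and -3.08 for Ikbkb. The differences for Nfkbiz, Nfkb2 and Relb were -0.65, 0.21 and -0.0070, all with overlapping groups (exact permutation p = 0.3, 0.6 and 1, adjusted 0.5, 0.75 and 1). Probes of 1 gene that disagree were common: among 6367 genes with at least 2 tested probes, the brightest and the second had opposite signs in 44.4%, and the second was lower than the brightest by at least 1 in 12.8%.

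**Figure D3:**
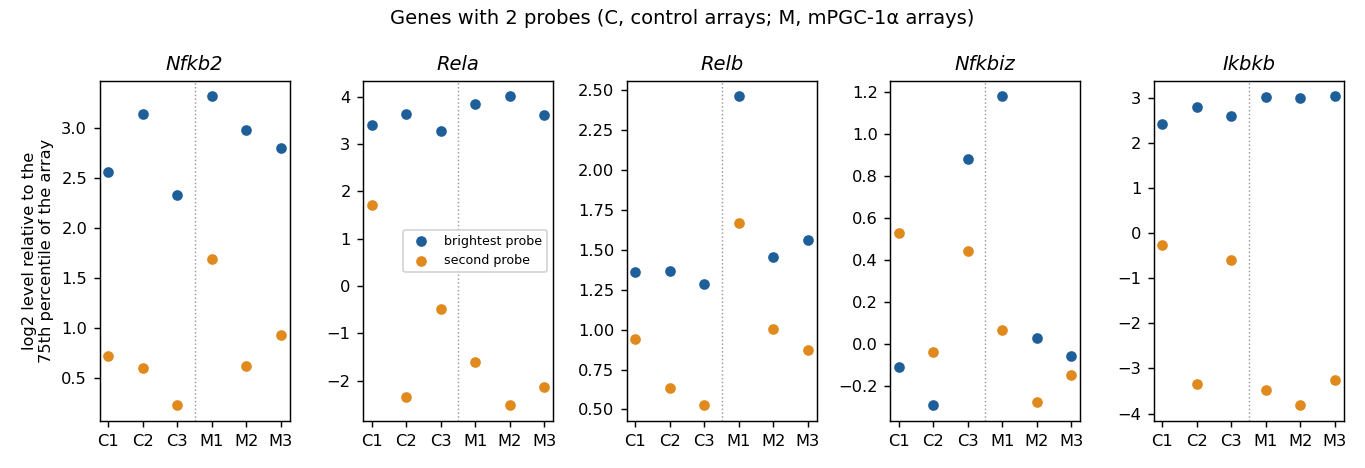
Log2 level on each array of both probes of the 5 members that have 2; each panel has its own vertical scale, the dotted line parts the control arrays (C) from the mPGC-1α arrays (M), and control array 2 lies with the mPGC-1α arrays on the second probes of Rela and Ikbkb.

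Nfkb1, the second Rela probe and the second Ikbkb probe shared 1 array pattern: higher on control arrays 1 and 3 than on the other 4. The pattern was taken from the values of these probes, so the member counts that follow describe it and are no test of it. With the second Nfkbiz probe, 4 of the 13 member probes on all 6 arrays had it, as did 13.8% of 36995 probes. For 2 of the 13 the gap was at least 1, against 3.48% of all probes. Without control array 2, Nfkb1 and the second probes of Rela and Ikbkb were calls in limma. Nfkb1 differed by -1.43 (adjusted p = 0.0265), Rela by -2.69 (adjusted p = 0.0427) and Ikbkb by -3.08 (adjusted p = 0.00095). Control array 2 was the lowest control on each, so leaving it out had to enlarge these differences. The calls are therefore no separate support for the pattern. In that fit 4.78% of all probes were called lower, so calls were frequent there. Of the 6 fits that each left out an array, the other 5 called 0 members. The same 3 probes, and no other member, were called when same-numbered arrays were paired and the 75th percentile was taken over unmarked spots, at -0.92 (adjusted p = 0.041), -1.63 (adjusted p = 0.00067) and -2.03 (adjusted p = 4.566e-05), beside 3.11% of all probes called lower. With the percentile over all probes, as used throughout here, pairing called 0 members, the smallest adjusted p being 0.125.

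**Figure D4:**
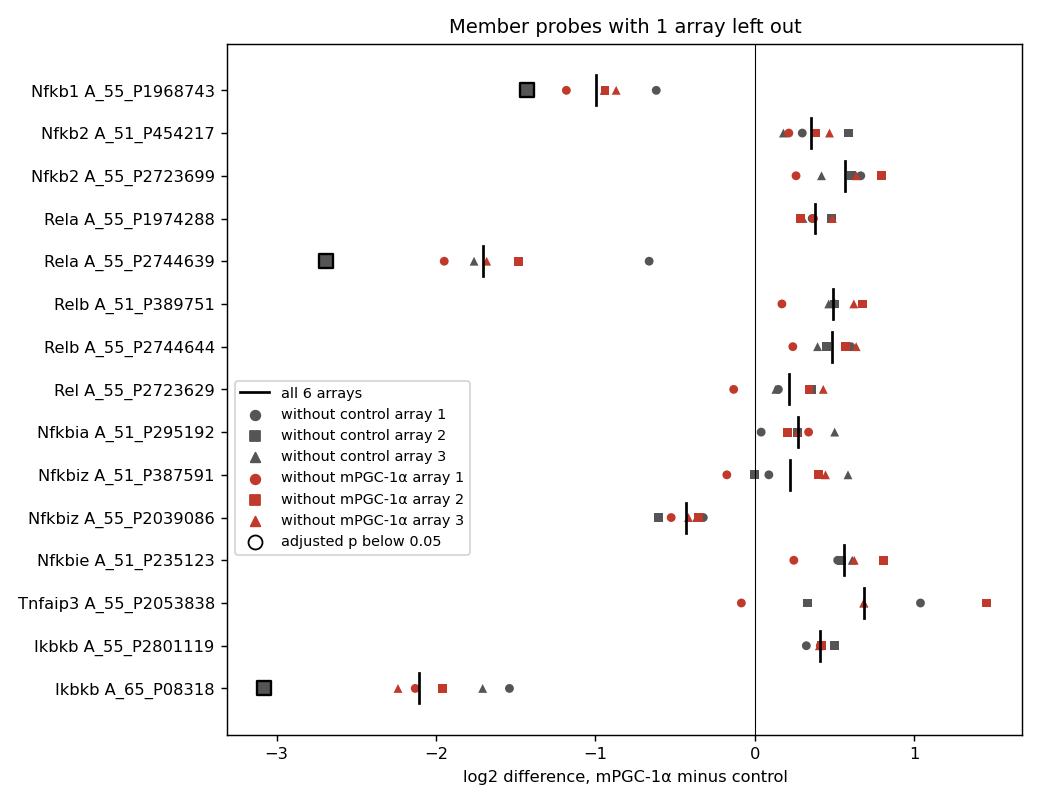
Log2 difference (mPGC-1α minus control) of each member probe with all 6 arrays (black bar) and with each array left out (points; grey, a control array; red, an mPGC-1α array). Outlined points have a limma adjusted p below 0.05: they are Nfkb1, the second Rela probe and the second Ikbkb probe without control array 2.

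Arrays of the same number deviated together, so the differences within a number were also read, though the sources used here do not pair them. Of the 13 member probes, 6 were higher on the mPGC-1α array of all 3 numbers and 4 were lower, beside 18.2% and 13.7% of all probes. The brighter Rela probe, whose groups overlapped, was higher by 0.45, 0.37 and 0.33, and the brighter Ikbkb probe by 0.59, 0.22 and 0.43. Nfkb1 differed by -1.38, -0.25 and -1.36, and the second probes of Rela (-3.30, -0.17 and -1.64) and Ikbkb (-3.21, -0.47 and -2.65) were also lower in each pair, with the smallest size in number 2.

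A different array led the members with positive differences. mPGC-1α array 1 was the highest of all 6 on 7 of the 13 probes, each with a positive difference, and for 19.8% of all probes. It was the highest of its group on 10 of the 13, and a share over all probes was not taken for this count. These include Nfkb1 and the second probes of Rela and Nfkbiz, whose differences were negative. The brighter probes of Rela and Ikbkb hardly moved without mPGC-1α array 1, at 0.37 and 0.41.

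The rest of the pathway was read by the brightest tested probe of each gene, and no gene of the 5 lists was called (adjusted p at least 0.684). The lists held 29 receptors and adaptors, 6 kinases, 7 noncanonical genes, 16 other inhibitors and 31 target genes tested. At an unadjusted limma p below 0.05, 3 of all these genes were higher and 0 lower. Among all genes 3.41% were higher, a share near that of the 5 lists together, and 2.68% lower. The 3 were all in the list of other inhibitors. These 3 were Bcl3 (0.77, adjusted p = 0.684), a nuclear IκB that binds p50 and p52, Nfkbib (0.46, adjusted p = 0.686), which gives IκBβ, and Zc3h12a (0.68, adjusted p = 0.690), whose product cleaves inflammatory mRNAs. Bcl3 read 0.56, 0.80 and 0.97 in the controls and 1.37, 1.49 and 1.78 in mPGC-1α, so the groups did not overlap. Over the 16 other inhibitors, 11 were above 0 with a median of 0.12, near that of all genes, and of the 15 on all 6 arrays 4 did not overlap with mPGC-1α higher and 1 with mPGC-1α lower, beside 8.48% and 3.45% of all genes.

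Upstream, 23 of 29 receptors and adaptors were above 0 with a median of 0.14, and 4 of 23 on all 6 arrays did not overlap, all with mPGC-1α higher, where 64% of all genes were above 0 and 8.48% did not overlap in that direction. The smallest p-values there were those of Tab3 (0.35) and Tab2 (0.28), adaptors of the kinase TAK1, and Tlr2 (0.54), a receptor for bacterial lipoproteins, with limma adjusted p from 0.767 to 0.768. Of the 6 kinase genes 3 were above 0, with a median of -0.17. Chuk, the gene of IKKα, read -0.32, -0.21 and -0.15 in the controls and 0.10, -0.0070 and 0.13 in mPGC-1α, without overlap (difference 0.30, limma adjusted p = 0.772). Tbk1, an IKK-related kinase, and Ikbkg, the scaffold NEMO, had differences of -0.54 and -0.53. Both were lower on control array 2 than on the other controls.

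In the noncanonical arm, 6 of 7 tested genes were above 0 with a median of 0.27, and 2 of 7 did not overlap with mPGC-1α higher, beside the same 64% and 8.48% of all genes. Ltbr, the lymphotoxin β receptor, differed by 0.38, Traf3, which restrains the arm, by 0.51, and the receptor Cd40 by 0.27 (limma adjusted p = 0.715, 0.718 and 0.790). The groups of Ltbr and Cd40 were those without overlap. Tnfsf11 was not tested, being too dim.

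Of the target genes of NF-κB, 20 of 31 tested were above 0 with a median of 0.19, 0 of the 19 on all 6 arrays had groups without overlap, and 0 had an unadjusted p below 0.05. The smallest p-values belonged to Il12b (0.93, SE 0.55), a subunit of the cytokines IL-12 and IL-23, Bcl2a1d (0.46), a survival gene with near-identical copies that the probe may also read, and the chemokine Ccl5 (0.51), with limma adjusted p from 0.750 to 0.756. Ccl5 read 1.58, 2.46 and 2.48 in the controls and 3.22, 2.31 and 2.52 in mPGC-1α, with mPGC-1α array 1 above and control array 1 below the other 4 arrays, which lay close together. Sele was not tested, being too dim.

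**Figure D5:**
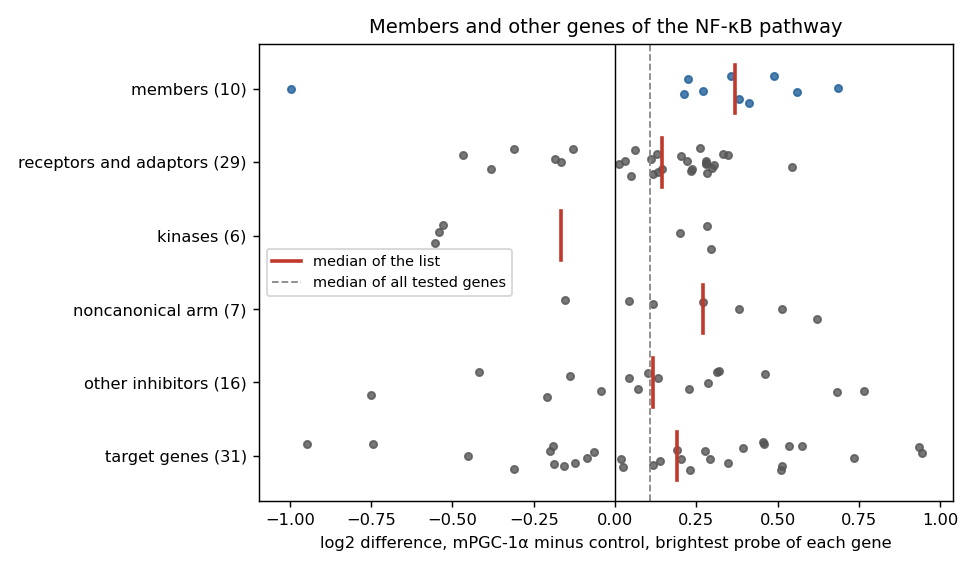
Log2 difference (mPGC-1α minus control) of the brightest tested probe of each gene, for the members and the 5 other lists of the pathway, with the number of genes in brackets; points are genes, red bars the medians and the dashed line the median of all tested genes, 0.11. The member median of 0.37 is the highest of the 6 lists and that of the kinases, at -0.17, the lowest.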

How the data were processed

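Microglial RNA from 3 control and 3 mPGC-1α samples was hybridised to Agilent mouse arrays, 1 array per sample; groups and replicate numbers came from the labels. One label field names Cy3 and the labelling protocol Cy5, and the files hold 1 green channel. The authors deposited linear intensity values made with Agilent Feature Extraction 11.5.1.1, background-subtracted and detrended within each array. The deposited series matrix holds log2 values that the authors normalized between arrays; its columns share their quartiles, and their correlation with the scanner values was at least 0.999. The number of arrays limits the precision.

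Log2 processed signal minus the 75th percentile of each array was computed in R 4.3.3 (with the package data.table, version 1.17.8). The percentile covered the same 56605 non-control probes on every array, since the spots that the scanner software marks as outliers (non-uniform, or far from the population) were bright (median 11300 units against 146.1) and uneven in number (549 to 1094 on slide 1, 3010 and 4931 on slide 2). Whether it covers marked spots was not set out beforehand. It was chosen after the calls under both definitions had been seen, and the other is given in the closing section. Marked spots were then left out, and spots of a probe averaged. A probe was tested if every unmarked array of a group, at least 2 of them, had it well above background, and if each group had 2 values. Of the probes, 33767 (59.65%) were named by accession through RefSeq annotation (GRCm38.p6).

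The test between genotypes was that of limma 3.58.1, with moderated variances that follow the intensity (lmFit, then eBayes with trend), two-sided, adjusted by Benjamini-Hochberg over 40745 probes at a threshold of 0.05, and exact two-sided permutation tests over 20 assignments were used for single values. Each slide held both groups. Same-numbered arrays deviated together (correlations 0.247, 0.224 and 0.171, and -0.337 to 0.035 for other pairs), so replicate numbers were treated as pairs in an alternative fit. The sources used here do not say that same-numbered samples were paired. Deviations were taken within each group of 3, so positive values for same-numbered arrays force lower ones elsewhere. Both arrays numbered 3 were also the only ones on slide 2. The fit was tested on simulated data. All probes of the 10 members are named, with the 3 genes of each pathway list with the smallest p, and Ppargc1a; members and lists were chosen with earlier results of these data known. Alternatives changed the normalization, background correction, source of values, filter, marked spots, slide, pairing, intensity trend, probe rule and arrays.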

Additional observations from a re-analysis of the deposited data

How the results depend on the processing

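The median difference of the members stayed between 0.19 and 0.46 in all settings, the averaging of a gene's probes included. The number of probes called among all tested was 0 with all arrays, 1 with the replicate block, 1720 (451 higher, 1269 lower) with the replicate block and the percentile over unmarked probes, and 0 to 2073 when an array was left out. The 2073 came when control array 2 was dropped, and 8 when mPGC-1α array 2 was. Member probes called numbered 3 in the second of these paired fits, with no other paired fit calling any, and 0 to 3 with an array left out. Both paired settings use the same pairing and differ only in the percentile, which over unmarked probes was lower by 0.25 on control array 3, by 0.50 on mPGC-1α array 3 and by 0.031 to 0.077 elsewhere; the median of all probes without pairing was then 0.15 in place of 0.083, with 0 calls. That setting and its paired form were chosen after seeing the data. Of 270 values of member probes over the alternatives, 257 kept direction and side of the threshold, 6 became calls and 7 turned sign. Those that turned were Nfkbia under quantile normalization (-0.098), with normexp (-0.15) and in the authors' log2 values (-0.063), and, with an array left out, Nfkbiz (range -0.18 to 0.58, and -0.0042 without control array 2), Rel (-0.13 to 0.43) and Tnfaip3 (-0.084 to 1.45). The 6 that became calls were Nfkb1 (-0.92 and -1.43), the second Rela probe (-1.63 and -2.69) and the second Ikbkb probe (-2.03 and -3.08), in the paired fit with unmarked probes and without control array 2; the cause was not tested. Ppargc1a stayed between -0.48 and -0.17 on its brighter probe and between -0.58 and -0.21 on the other. Slide as a block called 0 probes. Marked spots were left out, so Nfkbia and Tnfaip3 rest on 4 arrays each. Those of Nfkbia were bright, at 41992 and 50300 units, while those of Tnfaip3 read 2333 and 2346, below the median of 11300 for all marked spots.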
